A study of Mus musculus with 4 samples.

Results

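The genes described here are 10 transcripts around the Hippo pathway in mouse fibroblasts, which are 4 members of the CCN family of secreted matrix proteins (*Ctgf*, *Cyr61*, *Nov* and *Wisp1*), further targets of the coactivator YAP (*Ankrd1*, *Amotl2* and *Lats2*), and the transcription apparatus itself (*Yap1*, *Wwtr1* and *Tead1*). They were chosen by name, and every non-control probe that the array design assigned to one of these symbols was taken, which gave 14 probes of the 39429 probes and 10 of the 24104 gene symbols on the array. 7 of the genes had 1 probe each, while *Wisp1*, *Lats2* and *Tead1* had several. NIH-3T3:Per2-Luc cells, a mouse fibroblast line carrying a luciferase reporter driven by the *Per2* promoter, were pulsed with 5 mM H2O2 for 10 min (critical oxidative stress, cOS-pulse) and total RNA was collected 4 h, 20 h or 32 h later. The control cells of the same line received fresh medium and 0 mM H2O2, and their label places them at 4 h.

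Each of the 4 conditions was measured on 1 one-color array, and all arrays were on 1 slide. No replicate exists, so no test was made and no p-value is given. Errors below come from the scan of each spot, and they leave out the variation between cultures. At 20 h and 32 h, the effects of the cOS-pulse and of elapsed time cannot be told apart, since the only control is labelled 4 h, and all comparisons with the control share that 1 array.

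The Hippo pathway is a kinase cascade in which MST kinases activate LATS kinases, and these phosphorylate YAP and its paralog TAZ (encoded by *Wwtr1*) and keep them out of the nucleus. In the nucleus, YAP and TAZ bind TEAD factors, which recognize DNA, and switch on target genes such as *Ctgf*, *Cyr61* and *Ankrd1*. The transcripts of these targets are widely used as a readout of the pathway in cultured cells, where cell density, the actin cytoskeleton and serum factors are also known to act on them. The abundance of *Yap1* or *Wwtr1* mRNA, on the other hand, does not report the phosphorylation or the location of the proteins, which arrays do not measure.

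Between 52.7% and 59.1% of the probes of an array were well above background, and no spot was saturated. Values were scaled so that the 75th percentile of each array lay at 0 on the log2 scale. After this scaling, the median log2 ratio of all measured probes was 0.17 at 4 h over the control, while it was -0.0034 at 20 h and -0.0062 at 32 h. All 8 fibroblast markers examined were well above background on all arrays, and their summed level on the scaled log2 axis, set mostly by the brightest of them, ranged from 9.15 to 9.35. Single fibroblast markers moved more, with 1 of 8 at least 2-fold lower at 4 h (*Pdgfrb*, log2 ratio -1.35), 3 at 20 h (*Col1a1*, *Col3a1* and *Thy1*) and 0 at 32 h. Over all probes with a ratio, 8.18%, 3.35% and 2.59% were that much lower at these times. The medians of the fibroblast markers were -0.44, -0.42 and -0.38, beside those of all measured probes given above. Of the markers of other cell types, 1 to 2 of 4 epithelial, 2 to 3 of 3 endothelial, 2 of 3 blood, 0 to 1 of 4 muscle and 1 to 2 of 3 neural genes were above background on an array. *Krt14*, *Pecam1*, *Kdr*, *Cd68*, *Cd3e* and *Syp* were so on all arrays, and *Epcam*, *Cdh1*, *Ptprc*, *Myog*, *Myh1* and *Ckm* on none. At 4 h, *Cd68*, a lysosomal protein of macrophages, was 4.23-fold higher and the endothelial cadherin *Cdh5* 3.65-fold higher, and *Tnnt2* was above background at 4 h alone. The part of these markers in the results was not tested.

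TEAD factors recognize a short element whose core is GGAATG, and a core on the opposite strand reads as CATTCC here. To show where this core lies, promoter sequences of the members were read from a table of RefSeq promoters (mouse assembly GRCm38.p6), in which 6 of the 10 genes were matched. *Ctgf*, *Nov*, *Wisp1* and *Tead1* were not matched. The 250 bases before the transcription start are printed 5' to 3' on the strand of the gene, with the TEAD core in capitals, for those targets whose signals were lower after the cOS-pulse. The promoter of *Cyr61* is chr3:145649986-145650235 (minus strand), that of *Ankrd1* is chr19:36119845-36120094 (minus strand), and that of *Amotl2* is chr9:102717554-102717803 (plus strand).
Cyr61: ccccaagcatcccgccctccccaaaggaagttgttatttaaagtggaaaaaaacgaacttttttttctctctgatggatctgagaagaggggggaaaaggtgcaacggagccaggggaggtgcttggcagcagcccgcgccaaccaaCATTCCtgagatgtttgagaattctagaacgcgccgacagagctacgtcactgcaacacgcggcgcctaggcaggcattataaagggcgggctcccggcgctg
Ankrd1: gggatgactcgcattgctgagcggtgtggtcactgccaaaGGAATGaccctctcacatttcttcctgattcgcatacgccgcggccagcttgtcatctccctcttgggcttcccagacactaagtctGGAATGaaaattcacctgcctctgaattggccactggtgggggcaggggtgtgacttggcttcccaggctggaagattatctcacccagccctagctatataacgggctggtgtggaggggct
Amotl2: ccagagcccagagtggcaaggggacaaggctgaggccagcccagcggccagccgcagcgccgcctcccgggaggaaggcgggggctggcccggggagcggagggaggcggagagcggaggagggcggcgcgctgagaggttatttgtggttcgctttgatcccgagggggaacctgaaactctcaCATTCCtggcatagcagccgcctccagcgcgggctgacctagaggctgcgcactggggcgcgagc

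The core began at position -103 in *Cyr61*, at -210 and -123 in *Ankrd1*, and at -65 in *Amotl2*, counted from the last base before the start (-1). It was on the strand of the gene in *Ankrd1* and on the opposite strand in *Cyr61* and *Amotl2*. The promoters of *Yap1*, *Wwtr1* and *Lats2* held the same 6 letters. The brightest probes of these genes stayed close to the control under the scaling to the 75th percentile. In these promoters, 30 bases around the core are shown for comparison with the targets (*Yap1*, chr9:8004720-8004749; *Wwtr1*, chr3:57576029-57576058; *Lats2*, chr14:57746102-57746131; all on the minus strand).
Yap1: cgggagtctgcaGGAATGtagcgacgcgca
Wwtr1: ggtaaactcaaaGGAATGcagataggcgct
Lats2: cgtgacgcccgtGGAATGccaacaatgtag

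Here the core began at -141 in *Yap1*, at -136 in the first of the overlapping promoters listed for *Wwtr1*, and at 5, just inside the transcript, in *Lats2*. The second promoter listed for *Lats2* did not hold the core. All 6 members with a sequence had the core between 250 bases before and 50 bases after the start, in which it was present in 14.7% of the 32851 mouse windows of that length and for 16.6% of the genes. A match is only a stretch of letters, and it was present both in genes that were lower after the cOS-pulse and in genes that stayed near the control. The AP-1 element TGANTCA, searched on both strands, was in none of the 6 genes and in 7.81% of all promoters, and the CArG box of serum response factor was in none of them and in 1.63% of all promoters.

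At 4 h, 3 of the 14 member probes, those of *Ctgf*, *Ankrd1* and *Amotl2*, lay 2-fold or more below the control and 0 lay as far above it. Over all probes with a ratio, 8.18% were that much lower and 11.2% that much higher. At 20 h, 3 of 13 member probes with a ratio were at least 2-fold lower (*Ctgf*, *Cyr61* and *Ankrd1*) and 0 higher, beside 3.35% lower and 1.37% higher over all probes. At 32 h, 2 probes (*Ctgf* and *Cyr61*) were 2-fold or more below the control and 0 above it, beside 2.59% lower and 2.07% higher over all probes. The median log2 ratio of the 10 genes, taken over the brightest probe of each, was -0.16 at 4 h, -0.12 at 20 h and -0.054 at 32 h. Relative to the median of all measured probes, this was lower by 0.33 at 4 h, 0.11 at 20 h and 0.048 at 32 h.

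**Figure D1:**
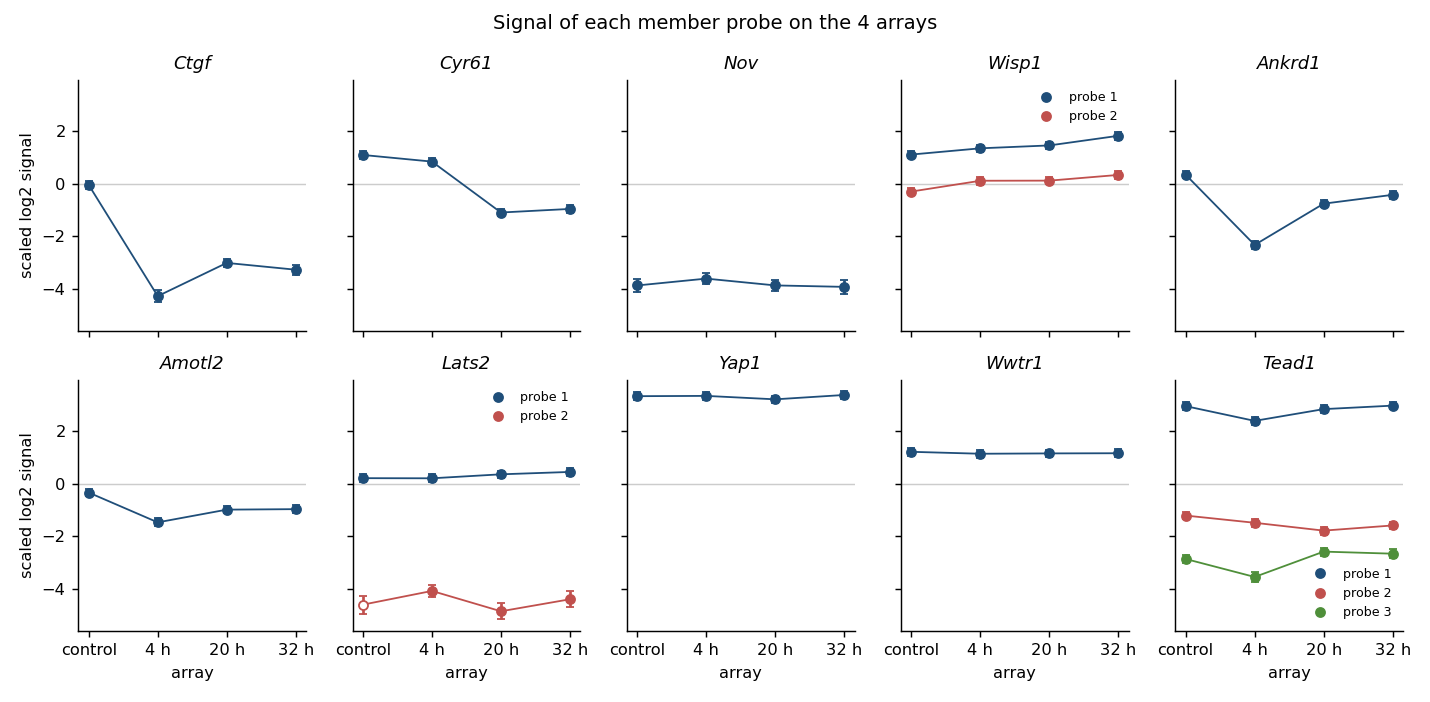
Signal of the 14 member probes on the 4 arrays, as log2 signal minus the 75th percentile of the array (y axis), 1 panel per gene with 1 line per probe. Bars are the spot errors of the scanner software, and the open symbol marks a spot not well above background. *Ctgf*, *Ankrd1* and *Amotl2* have their lowest point at 4 h, *Cyr61* has its lowest points at 20 h and 32 h, and *Yap1* and *Wwtr1* are nearly flat.

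*Ctgf* encodes connective tissue growth factor (CCN2), a secreted protein that promotes matrix production and is among the most used readouts of YAP. Its probe (mm9, chr10:24318281-24318340) had a processed intensity of 1067 in the control, 47.1 at 4 h, 173 at 20 h and 129.7 at 32 h. All treated arrays were far below the control, and the 4 h array was the lowest. On the scaled log2 axis, the levels were -0.05, -4.28, -3.01 and -3.27 in the same order, and the lowest signal counted as above background on the 4 h array was -4.94. The log2 ratio to the control was -4.22 ± 0.28 (spot error) at 4 h, or 18.7-fold lower, which ranked 1 from the lowest among the 20392 measured ratios. With normexp background correction instead of that of the scanner software, the log2 ratio at 4 h was -3.03, so the size of the fold at this dim signal depends on the background while its direction does not. At 20 h the log2 ratio was -2.96 ± 0.22 (7.78-fold lower, rank 7 of 20448), and at 32 h it was -3.22 ± 0.23 (9.31-fold lower, rank 2 of 19969). From 4 h to 20 h, the level of *Ctgf* was higher by 1.26 ± 0.29 on the log2 scale, which left it well below the control. Over all processing alternatives, the smallest falls were -3.03 at 4 h, -2.53 at 20 h and -2.60 at 32 h. The size of the step from 4 h to 20 h thus also depends on the processing. The difference between 32 h and 20 h (-0.26 ± 0.24) was about the size of the spot error.

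*Cyr61* encodes CCN1, a matricellular protein that binds integrins and supports adhesion and migration. Its probe (mm9, chr3:145310187-145310246) had intensities of 2348 in the control, 1623 at 4 h, 650.1 at 20 h and 642 at 32 h. At 4 h it was far nearer to the control than *Ctgf*, with a log2 ratio of -0.25 ± 0.20, and of -0.61, -0.65 and -0.53 with median, spike-in and no scaling. It was 4.55-fold lower at 20 h (log2 ratio -2.18 ± 0.20, rank 29 of 20448) and 4.14-fold lower at 32 h (-2.05 ± 0.21, rank 30 of 19969). The step between 4 h and 20 h was -1.93 ± 0.20 in *Cyr61*, where that in *Ctgf* had the opposite sign, and the step between 20 h and 32 h was 0.14 ± 0.21. Of 17296 probes with a gene symbol that were above background on all arrays, 7 (0.0405%) had the pattern of *Cyr61*, within 0.5 of the control at 4 h on the log2 scale and at least 4-fold lower at both 20 h and 32 h. These limits were set with the values of *Cyr61* in view, and under those 3 scalings *Cyr61* itself lay outside the limit at 4 h.

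*Nov* (CCN3), a family member often described as opposing the growth effects of other CCN proteins, had a dim probe (mm9, chr15:54584204-54584263) with intensities of 75.7 in the control, 74.7 at 4 h, 95.5 at 20 h and 82.6 at 32 h. The log2 ratios were 0.26 ± 0.32, 0.0019 ± 0.32 and -0.05 ± 0.36, all within the spot error. *Wisp1* (CCN4), a target of Wnt signaling, was measured by 2 probes that moved alike. Probe 1 (mm9, chr15:66754637-66754696) had intensities of 2374, 2303, 3799 and 4401, and probe 2 (mm9, chr15:66750958-66751017) had 897, 981, 1504 and 1572. Both were highest at 32 h, with log2 ratios of 0.71 ± 0.20 and 0.63 ± 0.21 at that time, beyond the spot error but below the 2-fold threshold. At 4 h the log2 ratios were 0.24 ± 0.20 and 0.41 ± 0.21, and that of probe 1 turned negative under 3 of 5 other scalings. At 20 h, they were 0.35 ± 0.20 and 0.41 ± 0.21. So the CCN genes among the members went separate ways. *Ctgf* was low at all times and *Cyr61* late, the dim *Nov* was near the control, and *Wisp1* was slightly above it late. *Wisp2*, a CCN gene outside the members, is described below.

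*Ankrd1* encodes an ankyrin repeat protein of muscle and of stressed or wounded cells, and its transcription is directly driven by YAP and TEAD. The intensities of its probe (mm9, chr19:36186809-36186868) were 1398 in the control, 181 at 4 h, 820.3 at 20 h and 931 at 32 h. The 4 h array was the lowest, and the later arrays lay between it and the control. The log2 ratio was -2.67 ± 0.21 at 4 h, or 6.35-fold lower (rank 28 of 20392), then -1.10 ± 0.20 at 20 h (2.15-fold lower) and -0.77 ± 0.20 at 32 h (1.70-fold lower). The level was 2.96-fold higher at 20 h than at 4 h (log2 1.57 ± 0.21) and higher again at 32 h than at 20 h by 0.34 ± 0.20. The value at 20 h was close to the 2-fold threshold, and it missed it under median scaling (log2 ratio -0.996), spike-in scaling (-0.90) and no scaling (-0.77).

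*Amotl2* encodes an angiomotin, a scaffold at cell junctions that binds YAP and is itself induced by it. Its probe (mm9, chr9:102635025-102635084) had intensities of 874 in the control, 328 at 4 h, 702 at 20 h and 639 at 32 h. The log2 ratio at 4 h was -1.13 ± 0.21, or 2.19-fold lower, and with normexp background correction it was -0.97, just short of 2-fold. At 20 h and 32 h, the log2 ratios were -0.65 ± 0.21 and -0.63 ± 0.21. Like *Ankrd1*, it was lowest at 4 h. The level was higher by 0.48 ± 0.21 at 20 h than at 4 h, and the difference between 32 h and 20 h (0.019 ± 0.21) was within the spot error.

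**Figure D2:**
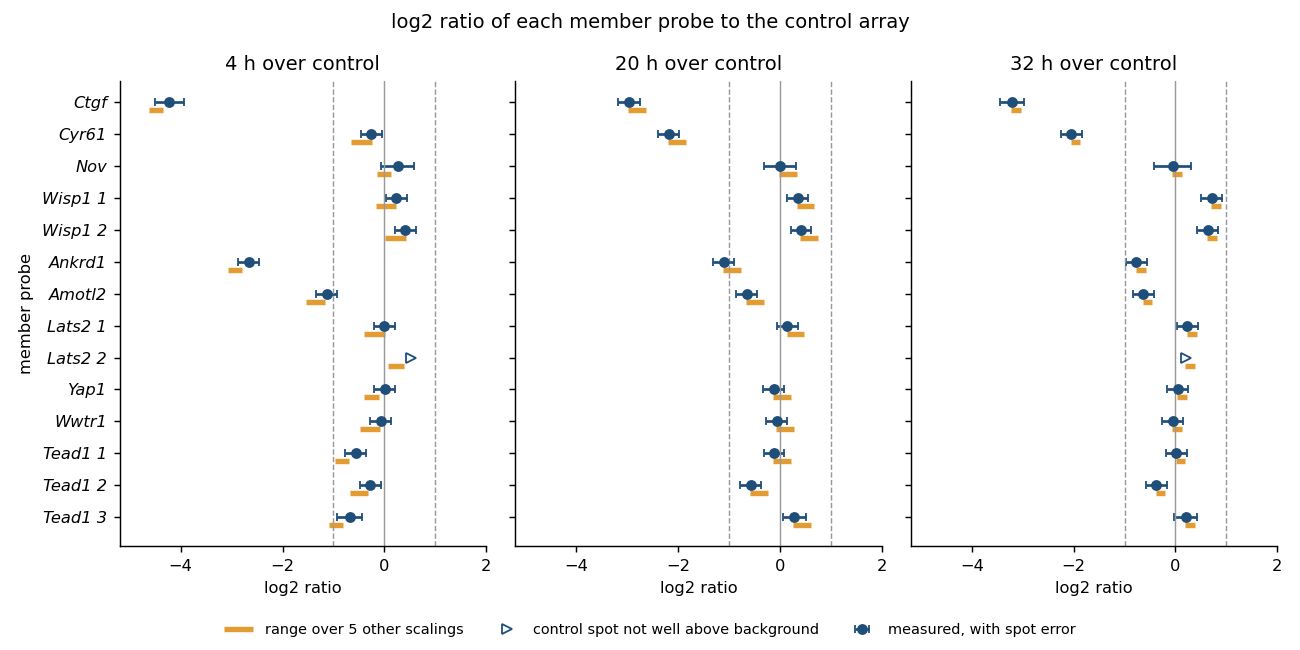
log2 ratio of each member probe to the control array (x axis) at 4 h, 20 h and 32 h, with genes that have several probes shown as gene and probe number. Points are measured ratios with the spot error, triangles are ratios over a control spot that was not well above background, orange bars span 5 other scalings of the arrays, and dashed lines mark 2-fold. *Ctgf* is beyond the dashed line at all times, *Cyr61* at 20 h and 32 h, *Ankrd1* at 4 h and 20 h, and *Amotl2* at 4 h.

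*Lats2* is the LATS kinase that is also a YAP target and thus part of a feedback loop. It did not share the drop under the scaling to the 75th percentile. With median, spike-in and no scaling, the log2 ratio of its probe 1 at 4 h was -0.37, -0.41 and -0.29, beyond the spot error. Its probe 1 (transcript variant A; mm9, chr14:58308807-58308866) had intensities of 1276, 1047, 1778 and 1701, with log2 ratios of -0.0048 ± 0.20 at 4 h, 0.15 ± 0.20 at 20 h and 0.24 ± 0.20 at 32 h. Probe 2 (variant B; mm9, chr14:58341225-58341284) was near the background, with intensities of 45.8, 54.0, 48.4 and 59.6, and its control spot was not well above background. Over that control spot, the log2 ratio was 0.52 at 4 h and 0.20 at 32 h, about the size of the spot error or less (0.41 and 0.46), and that at 4 h was 0.067 to 0.40 under 5 other scalings. No ratio to the control was taken at 20 h. Between treated arrays, the log2 ratio was -0.77 ± 0.39 at 20 h over 4 h and 0.46 ± 0.44 at 32 h over 20 h, at signals near the background.

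The coactivators themselves were nearly level. The probe of *Yap1* (mm9, chr9:7932025-7932084) had intensities of 11039, 9153, 12788 and 12890.4, and the log2 ratios were 0.011 ± 0.20, -0.12 ± 0.20 and 0.046 ± 0.20. *Wwtr1* (mm9, chr3:57259999-57260058), which encodes TAZ, had intensities of 2553, 1997, 3082 and 2782, with log2 ratios of -0.073 ± 0.20, -0.061 ± 0.20 and -0.054 ± 0.20. All 6 values were within the spot error of the control. Some of their signs depended on the scaling, since that of *Yap1* at 4 h turned under 5 of 5 other scalings and that of *Wwtr1* at 20 h under 3 of 5. At 4 h, those scalings gave -0.39 to -0.11 for *Yap1* and -0.48 to -0.090 for *Wwtr1*. The lower ends of both ranges were beyond the spot error.

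*Tead1* encodes the DNA-binding partner, and its 3 probes were not alike. Probe 1 (mm9, chr7:120049844-120049903), the brightest, had intensities of 8497, 4742.5, 9881 and 9738. Probe 2 (mm9, chr7:120042204-120042263) had 477, 325, 404 and 416, and probe 3 (mm9, chr7:120043445-120043504) had 152, 78.0, 232 and 198. The 4 h array was the lowest for all of them on this unscaled intensity, whereas on the scaled axis probe 2 was lowest at 20 h (-1.79). The log2 ratios at 4 h were -0.56 ± 0.20, -0.27 ± 0.21 and -0.68 ± 0.25 for probes 1, 2 and 3. That of probe 3 passed 2-fold under median, quantile and spike-in scaling (lowest -1.09). Its smallest fall over all processing alternatives was -0.32. At 20 h, the probes differed in direction, with -0.11 ± 0.20, -0.57 ± 0.21 and 0.28 ± 0.23. At 32 h the log2 ratios were 0.019 ± 0.20, -0.38 ± 0.21 and 0.20 ± 0.23, so that the largest late difference of *Tead1* from the control was seen by probe 2 alone.

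**Figure D3:**
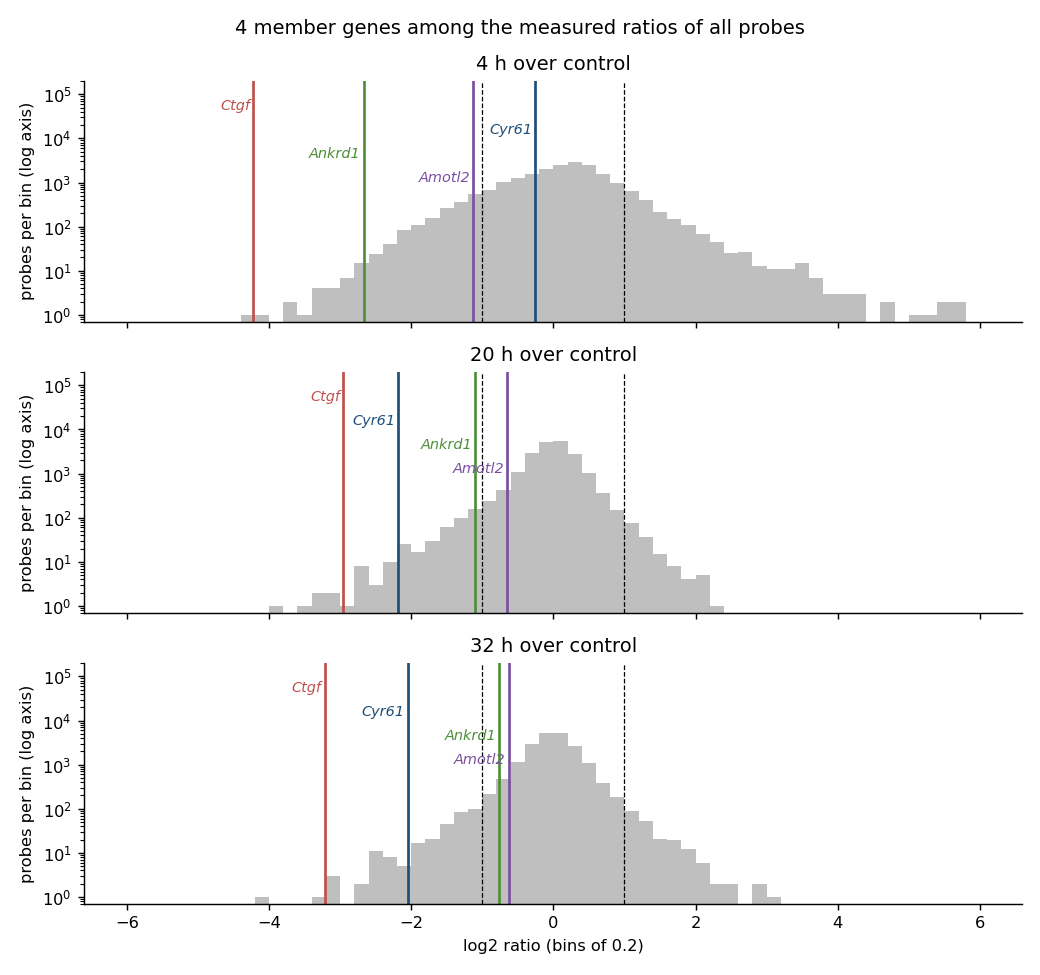
Number of probes (y axis, log scale) by log2 ratio to the control (x axis, bins of 0.2) for all probes measured on both arrays at 4 h, 20 h and 32 h, with lines at the ratios of *Ctgf*, *Cyr61*, *Ankrd1* and *Amotl2* and dashed lines at 2-fold. *Ctgf* lies at the lower end at every time (rank 1, 7 and 2 from the lowest), whereas *Cyr61* is inside the main body at 4 h and in the lower tail later.

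The wider pathway was examined in lists of genes, each by its brightest probe. The lists include members, so that they partly repeat the values above. *Lats2* is in the Hippo list, *Yap1*, *Wwtr1* and *Tead1* are in the list of factors, and *Amotl2* is among the angiomotins. *Ctgf*, *Cyr61*, *Nov* and *Wisp1* are in the CCN family, and several lists share genes. The list of Hippo kinases and scaffolds held 16 genes, of which 4 were at least 2-fold higher at 4 h and 0 lower, beside 11.2% higher and 8.18% lower over all probes, with a median log2 ratio of 0.52 beside 0.17. The 4 were the LATS kinase *Lats1* (log2 ratio 1.43), the LATS activator *Mob1b* (1.23), the upstream kinase *Map4k4* (1.05, or 1.95 by another probe) and the scaffold *Frmd6*, whose control spot was not above background (bound 1.06). *Taok3*, another upstream kinase, gave -0.45 by its brightest probe and -1.09 by another. Under 5 other scalings 1 to 2 were higher and 0 to 1 lower, and the median stayed above 0 (0.11 to 0.39). At 20 h and 32 h, no gene of this list passed 2-fold and the medians were 0.15 and 0.084. Of the 9 genes of the list of YAP, TAZ, TEAD factors and cofactors, 6 had a ratio and 0 passed 2-fold at any time, and the medians were -0.19, -0.087 and 0.032. Under other scalings, 0 to 1 were lower at 4 h with a median of -0.59 to -0.31. The median at 20 h turned positive with median, spike-in and no scaling (up to 0.24) and stayed negative with the others. *Tead2* gave -0.15, 0.15 and 0.084, and *Tead4* had no ratio at any time.

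All 3 angiomotins were measured, and they split at 4 h. *Amot* was past 2-fold lower (log2 ratio -1.15) along with *Amotl2*, while *Amotl1* was higher (1.64). At 20 h and 32 h, *Amot* was at 0.51 and 0.62, *Amotl1* at 0.23 and -0.066, and none passed 2-fold. In the CCN family, *Wisp2* (CCN5), which lacks one of the domains that the other members share, was 5.80-fold lower at 4 h (log2 ratio -2.54), 9.23-fold lower at 20 h (-3.21) and 9.05-fold lower at 32 h (-3.18). With it, 2 of 5 measured CCN genes were at least 2-fold lower at 4 h and 3 of 5 at both 20 h and 32 h. Over all probes, 8.18%, 3.35% and 2.59% were that much lower at 4 h, 20 h and 32 h. *Wisp3* was not detected on any array.

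A wider list of 23 YAP/TEAD targets, which includes *Ctgf*, *Cyr61*, *Ankrd1*, *Amotl2* and *Lats2*, had 20 genes with a ratio. At 4 h, 6 were at least 2-fold lower and 1 was higher, beside 8.18% and 11.2% over all probes. The median log2 ratio was -0.69 beside 0.17, with 15 genes below 0. Under 5 other scalings, 7 to 12 were lower and 1 higher. Median and spike-in scaling, with 11 and 12 lower, also shifted the median of all measured probes, to -0.19 and -0.23. The shares over all probes were counted only under the scaling to the 75th percentile. Besides the members, the lower genes were *Jub* (Ajuba, a LIM protein of cell junctions; -1.23), the exchange factor *Arhgef17* (-1.18) and the membrane repair protein *Myof* (-1.04). The higher gene was *Gadd45a* (1.84), a stress gene that p53 also drives. *Ccdc80* and *Asap1* were below -1 only by a probe that was not the brightest (-2.06 and -1.96, against -0.96 and -0.85). At 20 h, 5 of 20 were lower and 0 higher, beside 3.35% and 1.37% over all probes, with a median of -0.30, where *Crim1* (-1.05) and *Tgfb2* (-1.04) joined *Ctgf*, *Cyr61* and *Ankrd1*. With median, spike-in and no scaling, 2 were lower at 20 h. At 32 h, 2 were lower (*Ctgf* and *Cyr61*) and 0 higher, beside 2.59% and 2.07%, and the median was -0.11. Under other scalings, the medians reached 0.036 at 20 h and 0.066 at 32 h.

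**Figure D4:**
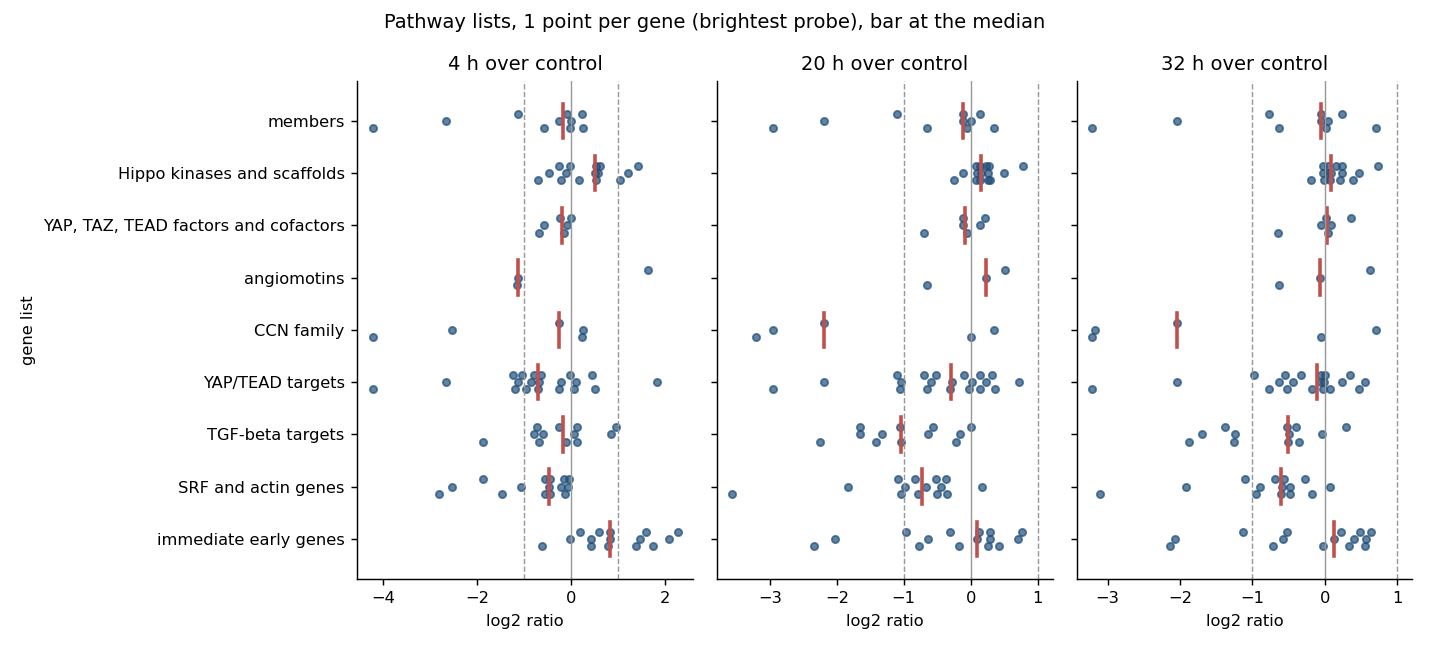
log2 ratio to the control (x axis) of the genes of each list (y axis) at 4 h, 20 h and 32 h, 1 point per gene by its brightest probe where measured on both arrays, with a red bar at the median of the list and dashed lines at 2-fold. The x axis range differs between panels. At 4 h the YAP/TEAD targets have a median of -0.69 and the Hippo kinases and scaffolds 0.52, and at 32 h these medians are -0.11 and 0.084. These lists share genes, among them *Lats2*, and are not independent.

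To place *Ctgf* and *Cyr61* among all genes, the 5 nearest gene symbols were taken by Euclidean distance over the log2 ratios at 4 h, 20 h and 32 h, among the 17296 probes with a symbol above background on all arrays. The 3 ratios share the control array, so that the control spot alone moves them together. Nearest to *Ctgf* were *Mtrf1* (distance 1.23), *Bnc1* (1.43), *Acta2* (1.55), *Wisp2* (1.70) and *Prrx2* (2.19). *Ctgf* had the lowest of all measured ratios at 4 h, so none of these genes could be as low then. Closest at 4 h were *Mtrf1*, a mitochondrial release factor, with -3.64 and the epithelial transcription factor *Bnc1* with -3.07. Nearest to *Cyr61* were *Pmepa1* (0.12), *Egr2* (0.40), *Cxcl10* (0.41), *Bgn* (0.41) and *Bglap2* (0.43). *Pmepa1*, a TGF-beta target, had log2 ratios of -0.23, -2.30 and -2.07, which differ from those of *Cyr61* by less than the spot error. Of the 17296 probes, 55 (0.318%) were at least 2-fold lower at all times, and *Ctgf* was the only member among them.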

How the data were processed

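Total RNA of NIH-3T3:Per2-Luc cells was measured on 4 one-color arrays (Agilent 4x44K v2), 1 per condition. The authors deposited intensities from Agilent Feature Extraction (version 10.7.3.1 per the submitters' processing notes), with background subtracted per spot, and a table that rescales those intensities by a single factor for each array, which was checked and used as an alternative. Here, log2 intensities of unflagged spots were averaged per probe and set relative to the array's 75th percentile, which assumes that most transcripts did not move together. A probe was taken as detected with 50% or more of its spots well above background. Ratios between 2 arrays that both detected a probe are called measured. Where only 1 did, the ratio was a bound over the higher of the dim spot's own signal and the lowest detected signal. The threshold was 2-fold. Spot errors come from the scanner software, with a median of 10.1% of the signal on the control array. For probes with repeated spots, the log2 ratio of a treated array to the control had a median SD over the spots of 0.049 to 0.054. That is a different measure from the error of a signal. The low number of arrays limits the precision.

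The members and gene lists were chosen with earlier results of these data known. Named were all members, the list genes with a probe at least 2-fold from the control at 4 h by a measured ratio (up to 30, largest first), and the 5 nearest to *Ctgf* and to *Cyr61*. Genes that passed 2-fold only by a bound or only at 20 h or 32 h, the cell type markers, *Tead2* and *Tead4* were named after their values were seen. Alternatives were other scalings (median, quantile, percentile of detected probes, spike-in probes, none), normexp background correction (offset 50), other detection rules, flagged spots kept, 1 value per gene, and thresholds of 1.5-fold and 3-fold. Spike-in scaling without 1 of its 8 probes was added after seeing the data. The steps were tested on simulated data. Promoters were matched to RefSeq by gene ID and synonym, on GRCm38.p6, and probe positions are those of the array design on mm9. A comparison of the CCN protein sequences and the exons under the probes were not analysed here. Some genes of the lists are counted but, being withheld, are not reported singly. Python 3.11.15 with numpy 2.4.6 and pandas 2.3.3, and R 4.3.3 with limma 3.58.1 were used.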

Additional observations from a re-analysis of the deposited data

How the results depend on the processing

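No paired analysis was possible because each condition had 1 array, and for the same reason no array could be left out. Of 90 counts of member probes past the threshold under 15 alternatives, 88 were within 1.5 times the main count. The exceptions were at 32 h with a 1.5-fold threshold, where 4 probes were lower and 2 higher. At 4 h, the count of lower probes ranged from 2 to 4, and at 20 h from 2 to 4. The median of the 10 genes at 4 h was -0.52 with median scaling, -0.57 with spike-in scaling, -0.56 with that scaling without 1 probe, and -0.44 with no scaling, beside -0.16. At 20 h it was 0.21 with no scaling, beside -0.12, and with spike-in scaling it was 0.083. At 32 h it was 0.10 with spike-in scaling and 0.12 with no scaling, beside -0.054. Median, spike-in and no scaling moved all probes by the same amount, since the median of all measured probes at 4 h went from 0.17 to -0.19 (median scaling) and -0.23 (spike-in scaling), and at 20 h from -0.0034 to 0.33 with no scaling. Relative to the median of all probes, the members were 0.33 below at 4 h in the main scaling and 0.22 below with quantile normalization. The other scalings shift each array by 1 constant, so they cannot change this difference. None of the 489 recomputed ratios of single probes turned the sign of a value past 2-fold, and 32 of them turned the sign of a smaller value. Dim signals limit the sizes for *Ctgf* at 4 h, *Nov* and probe 2 of *Lats2*.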

Other observations

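Genes of pathways that also act on *Ctgf* and *Cyr61* were listed in the same way. TGF-beta is a known inducer of both, and of 12 of its targets 1 was at least 2-fold lower at 4 h (*Thbs1*, log2 ratio -1.86), 7 at 20 h and 5 at 32 h, with 0 higher at any time. Under 5 other scalings, 1 to 5 were lower at 4 h and 4 to 7 at 20 h. Over all probes with a ratio, 8.18%, 3.35% and 2.59% were at least 2-fold lower, so the count at 4 h was near that share. The shares that much higher were 11.2%, 1.37% and 2.07%. The medians of these targets were -0.17, -1.05 and -0.51, beside 0.17, -0.0034 and -0.0062 for all measured probes. At 20 h the lower genes included the feedback inhibitor *Smad7* (-1.32) and *Pmepa1* (-2.26 by its brightest probe), which were at 0.13 and -0.10 at 4 h. *Skil*, a repressor of the pathway, gave 0.87 at 4 h by its brightest probe and 1.17 by another.

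Of 16 genes of serum response factor and the actin cytoskeleton, 5 were at least 2-fold lower at 4 h, 5 at 20 h and 4 at 32 h, and 0 were higher, with 5 at 4 h and 3 to 6 at 20 h under other scalings. Over all probes with a ratio, 8.18%, 3.35% and 2.59% were that much lower and 11.2%, 1.37% and 2.07% that much higher. The medians of these genes were -0.47, -0.73 and -0.60, beside 0.17, -0.0034 and -0.0062 for all measured probes. Smooth muscle actin (*Acta2*) had log2 ratios of -2.80, -3.56 and -3.11, and the myosin light chain *Myl9* -1.88 at 4 h. At 20 h and 32 h *Myl9* was not well above background, and was at least 12.7-fold and at least 9.78-fold lower. The adhesion protein vinculin (*Vcl*) gave -1.47, -1.83 and -1.92, and *Fhl2* gave -1.06, -1.08 and -0.89. Calponin 2 (*Cnn2*) was low at 4 h by both of its probes (-2.53 and -1.66) and nearer to the control later (-0.67 and -0.60 by the brightest). A dimmer probe of *Myh9* gave 1.33 at 4 h, where the brightest gave -0.21, and a dimmer probe of *Tpm1* was just past 2-fold higher, where the brightest gave -0.04.

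Of 18 immediate early genes, 7 were at least 2-fold higher at 4 h and 0 lower, with a median of 0.84, and 6 to 7 were higher under other scalings. They were *Fosb* (2.29), *Klf4* (2.11), *Ier3* (1.75), *Ier2* (1.60), *Nr4a1* (1.47), *Egr1* (1.39) and, by a bound of 2.01, *Fos*. At 20 h and 32 h 0 were higher (up to 2 at 20 h under other scalings), and *Egr1* (-2.03 and -2.15) and *Egr2* (-2.34 and -2.08) were lower, with *Klf4* (-1.13) at 32 h. Over all probes with a ratio, 11.2%, 1.37% and 2.07% were at least 2-fold higher at 4 h, 20 h and 32 h. The shares that much lower were 8.18%, 3.35% and 2.59%. All of these values rest on 1 array per condition.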
